A study of Mus musculus with 8 samples.

Results

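The neuronal intermediate filament and axon growth genes described here were 10 of the 55471 gene identifiers counted: Nefl, Nefm, Nefh, Ina, Prph, Vim, Nes, Gap43, Map1b and Stmn2. They were listed by name and not by a cutoff on a measured value, but with earlier results of these data known. All 10 were found by symbol. RNA was sequenced from 8 libraries of motor neurons differentiated from mouse HBG3 embryonic stem cells, which carry a green fluorescent protein reporter driven by the motor neuron promoter HB9. After dissociation the cells were plated on laminin and kept with BDNF, CNTF and GDNF for 3 more days. The labels name no sort on the reporter.

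There were 4 groups, each with 1 library from each of 2 independent experiments, which the labels number replicate 1 and replicate 2. Input was the RNA before capture. ODD and EVEN were the RNA captured with antisense probes, 20 nt long and carrying biotin, against Lhx1os, a long noncoding RNA, in 2 sets that each cover all its isoforms. LacZ was the capture with probes against a bacterial mRNA and was the negative control. All 4 groups came from the same kind of culture, and no group carried a genetic change that another lacked. Each pull-down was compared with Input to look for RNAs held together with Lhx1os.

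Intermediate filaments are the tough, rope-like part of the cytoskeleton, and cells exchange one filament protein for another as they mature. Neural progenitors and glia build them from vimentin and nestin, whereas neurons use alpha-internexin and the light, medium and heavy neurofilament proteins, joined in motor neurons by peripherin. Growing axons also need proteins that act on the membrane and the microtubules of the growth cone, among them GAP-43, MAP1B and stathmin-2. Neurofilament mRNAs and proteins are widely used as signs of motor neuron maturity and damage.

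The total count per library was between 20515501 and 24628435 for Input and between 7632775 and 12563449 for the pull-downs. The 10 genes took between 0.682% and 1.18% of a library's counts. Lhx1os had 55 and 61 counts in Input, 16 and 28 with LacZ, 2239 and 371 with ODD, and 1767 and 283 with EVEN for replicates 1 and 2, so its level in the captured RNA was higher in replicate 1. Values below are CPM (counts scaled to library size with TMM factors) for comparisons of 1 gene between libraries, and FPKM, which also divides by gene length, for comparisons between genes. Counts are reads without molecular identifiers.

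The genes lie at separate places in the genome, except for 1 pair. On GRCm38, Nefl spans chr14:68083863-68089095 on the plus strand and Nefm spans chr14:68082590-68124846 on the minus strand. Their annotated exons share 1108 bases on opposite strands, which is 32.8% of the exon length of Nefl and 19.2% of that of Nefm, because 1 of 2 annotated Nefm transcripts runs on into the Nefl gene. The shared block holds the 5′ UTR and coding sequence of Nefl. Ina (chr19:47014698-47025327, plus strand) shares 456 exon bases, or 14.1%, with the opposite-strand gene Nt5c2. The library kit keeps the strand, but the counting's use of it is not given here, so the values of Nefl, Nefm and Ina are uncertain to that extent. The others are Nefh (chr11:4938754-4948064, minus), Prph (chr15:99055174-99058978, plus), Vim (chr2:13573927-13582826, plus), Nes (chr3:87971078-87980451, plus), Gap43 (chr16:42248442-42340651, minus), Map1b (chr13:99421446-99516540, minus) and Stmn2 (chr3:8509360-8561606, plus).

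The study's title concerns low-complexity repeats, runs of sequence built from few letters or short units, so the repeats of these mRNAs are shown first. Neurofilament proteins carry charged tails and MAP1B lysine-rich stretches, whose repeated codons can form such runs. For 4 genes a stretch that lies wholly in coding sequence is printed, with the glutamate codons GAA and GAG in capitals, each in the reading frame of the gene's longest coding transcript. Nes and Gap43 also had such a stretch, not printed, with 0 of 20 and 1 of 19 glutamate codons.
Nefl, chr14:68087337-68087441, plus strand: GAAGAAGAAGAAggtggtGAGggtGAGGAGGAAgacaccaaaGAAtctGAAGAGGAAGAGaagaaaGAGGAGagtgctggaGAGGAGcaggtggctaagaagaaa
Nefh, chr11:4947302-4947391, minus strand: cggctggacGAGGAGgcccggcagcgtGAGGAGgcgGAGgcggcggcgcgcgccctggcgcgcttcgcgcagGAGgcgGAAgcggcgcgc
Ina, chr19:47015175-47015258, plus strand: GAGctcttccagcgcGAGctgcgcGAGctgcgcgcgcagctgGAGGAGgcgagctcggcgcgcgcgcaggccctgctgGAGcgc
Map1b, chr13:99434172-99434321, minus strand: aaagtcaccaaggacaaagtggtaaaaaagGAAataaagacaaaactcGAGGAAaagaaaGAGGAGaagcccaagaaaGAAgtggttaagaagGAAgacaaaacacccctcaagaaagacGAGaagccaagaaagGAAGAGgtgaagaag
In Nefl 17 of 35 codons are glutamate codons and 6 are lysine codons. The 50 codons printed for Map1b hold 10 glutamate and 21 lysine codons, and the whole stretch, of 308 nt, is as long as or longer than the longest of all but 0.345% of 16508 genes. The Nefh and Ina stretches hold 7 of 30 and 6 of 28 glutamate codons and no lysine codon. They lie early in their transcripts, from base 673 of 3994 in Nefh and base 476 of 3240 in Ina, and are not tail sequence. G and C make up 82.6% and 78.2% of them. A further coding stretch of Nefh, 91 nt at chr11:4941132-4941222 with 49.5% G and C, is not printed, and its codons were not counted.

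Dust masking marked between 0% (Prph) and 19.0% (Gap43) of the transcript as low complexity. The share was 9.63% in Ina, 9.38% in Nefl, 7.79% in Nefh, 6.89% in Map1b, 3.80% in Nefm, 2.80% in Stmn2, 2.73% in Nes and 0.958% in Vim. The members' median was 5.35%, beside a median of 2.03% over the 16508 genes, and 0.388% of those genes had a share as high as that of Gap43. Ina, Nefl and Nefh thus held more of such sequence than Vim and Prph, which belong to the same protein family. The Nefm share was taken on the transcript that runs on into Nefl, with 1410 coding nt of 3680. Its 3 marked stretches lie in the 3′ UTR, and the other Nefm transcript was not measured. Against the 3 annotated isoforms of Lhx1os, the longest exact match was 11 or 12 nt on the same strand and between 9 and 12 nt on the antisense strand, where the median over 16507 genes was 11 nt for both. The capture probes are DNA against Lhx1os, so matches on the same strand as Lhx1os are the ones that resemble a probe's target.

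**Figure D1:**
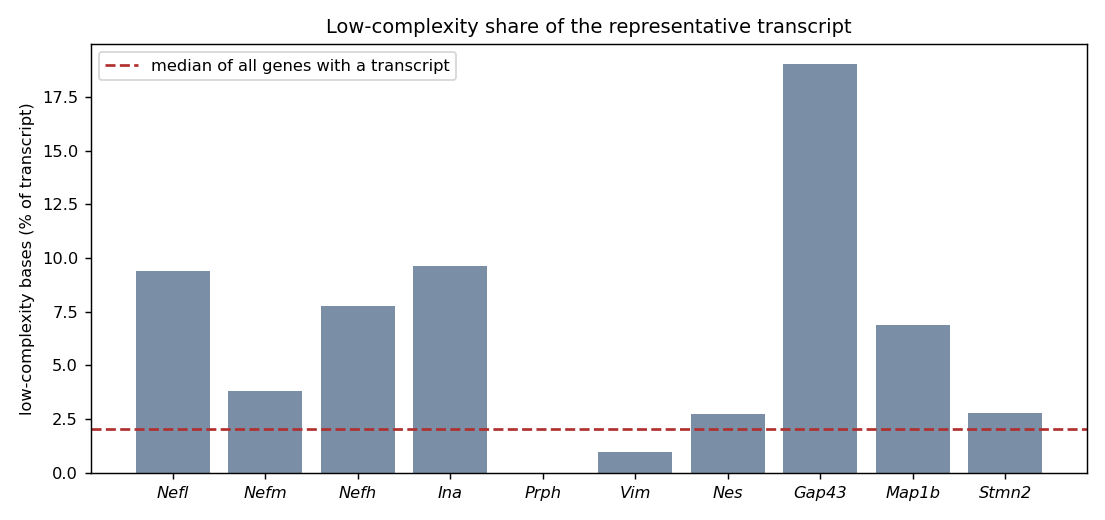
Share of each gene's transcript marked as low complexity (percent, a bar per gene), with the median over 16508 genes as a dashed line. Gap43 stands highest at 19.0%, and Prph has none.

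Per unit of length, most of these genes were among the most abundant of the culture. In Input the FPKM was 280 ± 0.0705 (SD, n = 2) for Vim, 279 ± 56.2 for Map1b, 274 ± 162 for Gap43, 211 ± 69.3 for Ina and 209 ± 133 for Nefl. It was 132 ± 4.98 for Nes, 113 ± 92.0 for Nefm, 90.8 ± 97.5 for Prph, 69.9 ± 39.3 for Stmn2 and 4.19 ± 2.79 for Nefh. Among 24366 genes with an Input FPKM above 0, Vim, Map1b and Gap43 ranked 39, 40 and 41, and Nefh ranked 9090. Heavy neurofilament is the last of the triplet to appear as neurons mature, and it was the only gene of the 10 separated from its neighbour in this order by more than their spread. The other neighbouring genes did not differ beyond the SD of their Input libraries.

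The order itself differed between the experiments. In the Input library of replicate 1 the FPKM ran from Vim (280) and Map1b (239) through Ina (162), Gap43 (160), Nes (135) and Nefl (115) to Nefm (48.4), Stmn2 (42.1), Prph (21.9) and Nefh (2.22). In that of replicate 2 it ran from Gap43 (388), Map1b (318) and Nefl (303) through Vim (280), Ina (260), Nefm (178) and Prph (160) to Nes (128), Stmn2 (97.6) and Nefh (6.16). By FPKM the progenitor filament vimentin was therefore 2.44 times light neurofilament in replicate 1 and 0.923 times in replicate 2. Nestin over light neurofilament was 1.18 and 0.423. FPKM divides by all annotated exons of a gene, 4743 bases for Vim and 5602 for Stmn2. Their longest coding transcripts have only 2193 and 2073 nt, whereas for Nefl both lengths are 3380. The order of the genes, and which of Vim and Nefl is higher, therefore depend on the length used.

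**Figure D2:**
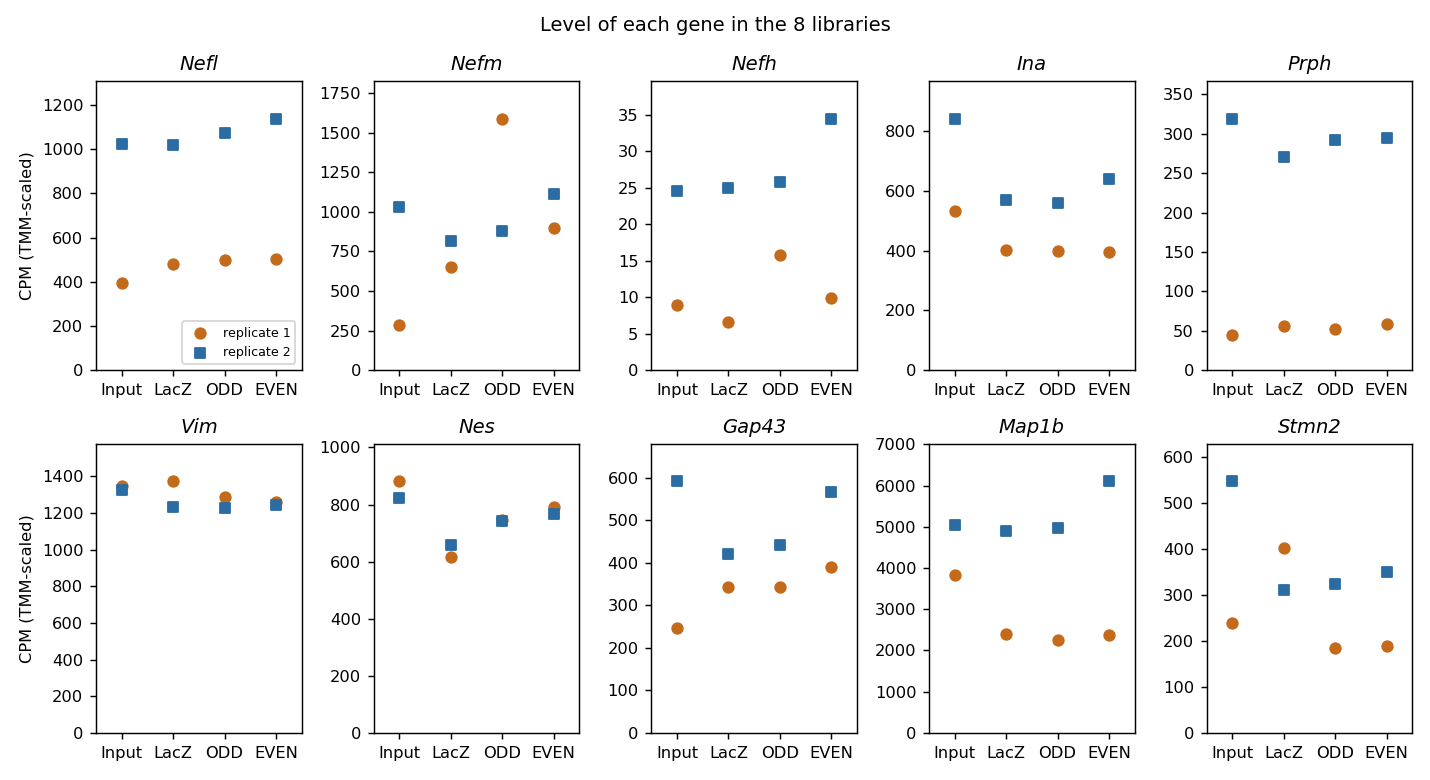
CPM of each of the 10 genes in its own panel, on a linear axis from 0, with a point per library by group (Input, LacZ, ODD, EVEN); circles are replicate 1 and squares replicate 2. Prph and Nefl lie apart between replicate 1 and replicate 2 in every group, while Vim and Nes lie together.

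Between the experiments, 6 of the 10 genes were higher in every replicate 2 library than in any replicate 1 library: Nefl, Nefh, Ina, Prph, Gap43 and Map1b. Over all 16524 genes tested, 12.7% had that pattern. None of the 10 had the opposite pattern, which 10.6% of genes had. Libraries with the same number were taken to come from 1 experiment. The 4 libraries of a side were therefore not treated as independent, and no test was made of this difference. In bulk samples fewer cells of a type and less RNA per cell cannot be told apart.

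Prph, which encodes peripherin and is expressed in motor neurons and peripheral neurons, differed most. Its CPM in replicates 1 and 2 was 44.5 and 319 in Input, 55.8 and 271 with LacZ, 51.7 and 292 with ODD, and 59.1 and 295 with EVEN. All 4 replicate 2 libraries were high and all 4 replicate 1 libraries were low, with ratios between 4.86 and 7.18. The difference between experiments held 99.0% of the sum of squares of log2(CPM + 1) of Prph over the 8 libraries.

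Nefl, the light chain that every neurofilament needs, had a CPM of 393 and 1024 in Input, 479 and 1021 with LacZ, 500 and 1073 with ODD, and 505 and 1138 with EVEN. The experiments did not overlap, and replicate 2 was higher by a factor between 2.13 and 2.60. Nefh, the heavy chain, had 8.98 and 24.6 in Input, 6.57 and 24.9 with LacZ, 15.8 and 25.8 with ODD, and 9.90 and 34.4 with EVEN. These also did not overlap, but they rest on few reads, from 51 counts in the LacZ library of replicate 1 to 505 in the Input library of replicate 2. Ina, alpha-internexin, the filament protein of young neurons, had 532 and 841 in Input, 403 and 568 with LacZ, 398 and 558 with ODD, and 395 and 640 with EVEN. Its highest replicate 1 library, Input, was just below its lowest replicate 2 library, ODD, and its ratios were between 1.40 and 1.62.

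Nefm, the medium chain, did not follow the light and heavy chains. Its CPM was 284 and 1031 in Input, 649 and 819 with LacZ, 1588 and 880 with ODD, and 896 and 1114 with EVEN. The ODD library of replicate 1 was the highest of all 8 and the Input library of replicate 1 the lowest, so the experiments overlapped. Nefm over Nefl by FPKM was 1.86 in that ODD library, 1.04 in the EVEN library of replicate 1, and between 0.422 and 0.792 in the other 6 libraries. Nefm and Nefl share exon bases, as described above.

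Of the axon growth genes, Gap43, a membrane protein of the growth cone, had a CPM of 247 and 591 in Input, 343 and 421 with LacZ, 342 and 440 with ODD, and 389 and 566 with EVEN. Replicate 2 was higher throughout, with no overlap, by a factor of 2.39 in Input and between 1.23 and 1.45 in the pull-downs. Map1b, a microtubule-binding protein of growing axons, had 3842 and 5043 in Input, 2396 and 4895 with LacZ, 2259 and 4974 with ODD, and 2381 and 6102 with EVEN. Here the factor was smallest in Input, 1.31, and between 2.04 and 2.56 in the pull-downs. Stmn2, a tubulin-binding protein of the growth cone, had 239 and 547 in Input, 402 and 311 with LacZ, 184 and 323 with ODD, and 188 and 350 with EVEN. The LacZ library of replicate 1 was above that of replicate 2, and so the experiments overlapped for Stmn2; without that library they did not.

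The progenitor and glial filament genes were at like levels in both experiments. Vim had a CPM between 1259 and 1373 in replicate 1 and between 1230 and 1325 in replicate 2. Nes had between 617 and 881 in replicate 1 and between 659 and 822 in replicate 2. The experiments overlapped for both genes, and the experiment held 33.2% of the sum of squares of Vim and 0.200% of that of Nes. The median of this share was 65.0% over the 10 genes and 26.3% over all genes tested, and the median share held by the groups was 18.7% over the 10 genes and 39.96% over all.

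**Figure D3:**
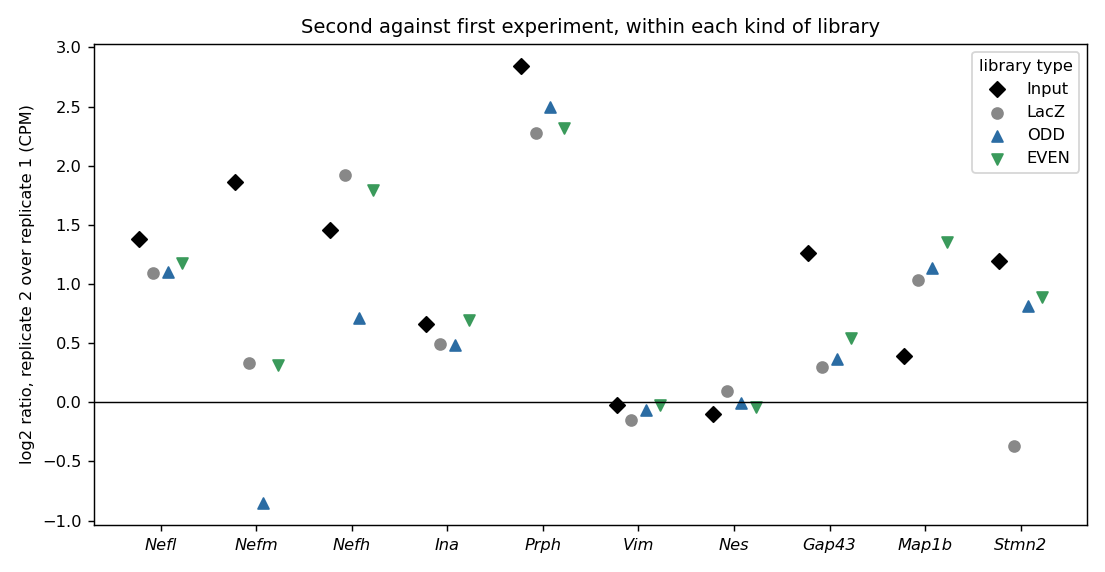
The log2 ratio of replicate 2 to replicate 1 in CPM for each of the 10 genes, with a point per group (Input, LacZ, ODD, EVEN) and a line at no difference. Prph lies highest, at ratios between 4.86 and 7.18 before the log, and those of Vim and Nes lie near the line.

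Markers of cell types moved between the experiments too. The 8 motor neuron markers summed to between 236 and 253 CPM in the replicate 1 libraries and between 411 and 443 in those of replicate 2, and 6 of 8 were higher in all replicate 2 libraries. The labelled cell type's markers were thus present in every library. The 5 oligodendrocyte markers summed to between 560 and 844 in replicate 1 and between 100 and 131 in replicate 2, and 4 of 5 were higher in all replicate 1 libraries. Neural progenitor markers summed to between 3196 and 3345 in replicate 1 and between 2321 and 3140 in replicate 2, with 5 of 8 higher in all replicate 1 libraries and 1, the proliferation marker Mki67 (304 to 383 and 418 to 499), in all replicate 2 libraries. Top2a, also a proliferation marker, overlapped, with 680 to 773 and 600 to 1244. Mki67 and Top2a are singled out here after their values were seen. Astroglial markers summed to between 258 and 458 and between 188 and 205. The sums for spinal interneurons were 41.5 to 55.6 and 52.2 to 60.9, for sensory neurons 9.80 to 13.5 and 20.5 to 23.1, and for fibroblasts 117 to 225 and 109 to 184. Of 5 pluripotency markers 2, Pou5f1 and Dppa5a, had no count in any library, and the sum was between 2.71 and 12.6. The part of these cell types in the differences of the 10 genes was not tested.

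**Figure D4:**
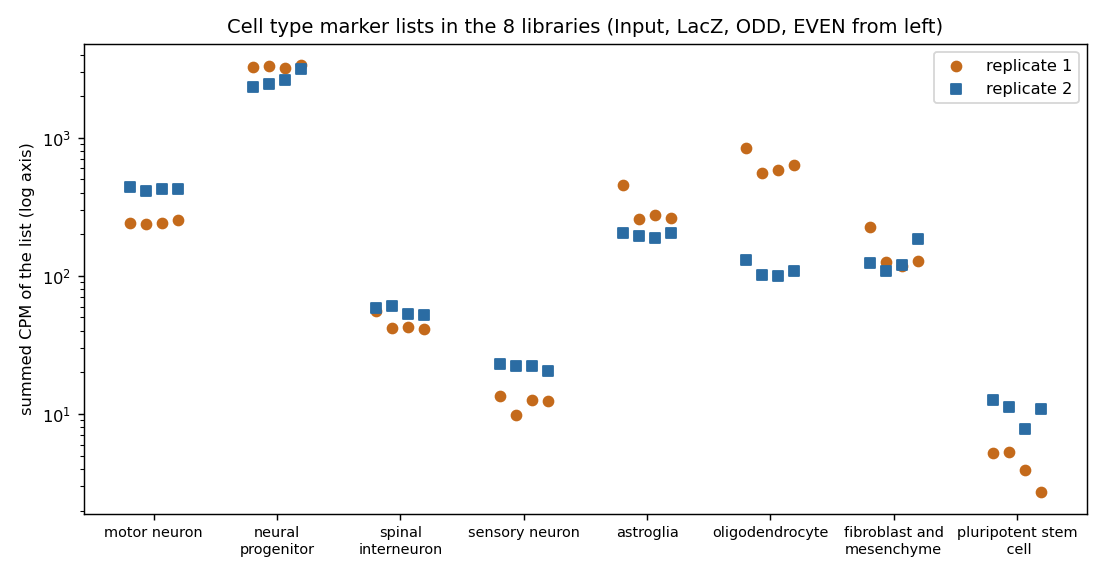
Summed CPM of each marker list in the 8 libraries, a point per library, circles for replicate 1 and squares for replicate 2, on a log axis. The motor neuron sums are higher in replicate 2 and the oligodendrocyte sums higher in replicate 1.

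Other genes of the same pathways were taken from 4 lists, to be read beside the 12.7% and 10.6% of all genes tested that were higher in all replicate 2 and in all replicate 1 libraries. Of the growth cone and axon outgrowth list, 9 of 17 genes were higher in all replicate 2 libraries and 1 in all replicate 1 libraries. Dpysl3, a collapsin response mediator, had between 1393 and 1728 CPM in replicate 1 and between 1948 and 2044 in replicate 2, whereas Marcks, an actin-regulating membrane protein, had between 1255 and 1511 and between 851 and 1178. Of the neuronal tubulins and microtubule binders, 5 of 13 were higher in all replicate 2 libraries, among them Tubb2b, a neuronal beta-tubulin, with between 861 and 896 against between 976 and 1060. The axonal transport motors gave 5 of 9, among them Kif5c, a kinesin heavy chain, with between 310 and 456 against between 460 and 536. The intermediate filament partners, which link or anchor filaments, gave 1 of 7 tested, near the share over all genes. It was Plec, with between 164 and 201 against between 257.5 and 309.4. The median log2 difference between replicate 2 and replicate 1 was 0.62 over the 10 genes, 0.35 for the growth cone list, 0.35 for the tubulin list, 0.49 for the motors, 0.07 for the filament partners and 0.01 over all genes tested.

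Against Input, none of the 10 genes passed the threshold of an adjusted p of 0.05 in any pull-down by edgeR's quasi-likelihood test. Over all genes tested, 6.84% were called for ODD, 5.66% for EVEN and 7.41% for LacZ. The 3 comparisons share the Input libraries. At an unadjusted p under 0.05 the count was 0 for ODD, 0 for EVEN and 1 for LacZ of the 10, beside 3031, 3114 and 3130 of the 16524 genes tested. DESeq2 and limma also called none of the 10. The median log2 fold change of the 10 genes was -0.09 for ODD, -0.05 for EVEN and -0.14 for LacZ, beside -0.03, 0.00 and -0.05 over all genes.

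The single gene at an unadjusted p under 0.05 was Nes, nestin. Its CPM was 881 and 822 in Input and 617 and 659 in LacZ. The groups did not overlap, but the share of all genes tested with such an order was not counted. The log2 fold change was -0.42 (SE 0.15), with an adjusted p of 0.198 by edgeR. In ODD Nes had 746 and 741 and in EVEN 791 and 768, all below Input, with log2 fold changes of -0.20 (SE 0.15) and -0.13 (SE 0.15).

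Ina was below Input in every pull-down of its own experiment, at 0.757, 0.748 and 0.742 of Input in LacZ, ODD and EVEN of replicate 1 and at 0.675, 0.663 and 0.761 in replicate 2. Within a single experiment this was common: all 3 pull-downs were below Input for 38.6% of all genes tested in replicate 1 and 42.0% in replicate 2. Of the 10 genes, 3 and 6 had it, and Nes, like Ina, had it in both experiments. The share of all genes with it in both experiments was not counted. The log2 fold changes were -0.50 (SE 0.35) in LacZ, -0.52 (SE 0.35) in ODD and -0.41 (SE 0.35) in EVEN, and did not pass. With the experiment as a block, Ina passed in ODD at -0.51 (SE 0.13; edgeR adjusted p = 0.0313) and in LacZ at -0.48 (SE 0.13; edgeR adjusted p = 0.0355), but not in EVEN at -0.41 (edgeR adjusted p = 0.0604). It was the only one of the 10 genes that the blocked fit called, where 19.2% of all genes were called with ODD, 19.3% with EVEN and 19.7% with LacZ. The value was thus as low with the control probes as with the Lhx1os probes. With a trend on GC content removed from the blocked fit, none of the 10 genes was called.

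Nefm had the highest fold change over Input, and it came from 1 experiment. In replicate 1 its CPM over that of Input was 2.29 in LacZ, 5.60 in ODD and 3.16 in EVEN. In replicate 2 the ratios were 0.794, 0.854 and 1.08. The log2 fold change in ODD was 0.91 (SE 0.57), with an adjusted p of 0.487 by edgeR, and 0.61 (SE 0.57) in EVEN and 0.16 (SE 0.57) in LacZ. It passed in ODD only when genes of low counts were kept in the fit, at 0.88 (edgeR adjusted p = 0.0253).

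Map1b and Stmn2 also differed between experiments in their ratio to Input. For Map1b the pull-downs of replicate 1 were at 0.624 in LacZ, 0.588 in ODD and 0.620 in EVEN, and those of replicate 2 at 0.971, 0.986 and 1.21. For Stmn2 they were at 1.68, 0.768 and 0.787 in replicate 1 and at 0.570, 0.591 and 0.640 in replicate 2. The log2 fold changes of Map1b were between -0.30 and -0.07 with an SE of 0.58, and those of Stmn2 were -0.63 for ODD, -0.55 for EVEN and -0.14 for LacZ with an SE of 0.48. In the fit without the block, Nefl, Nefh, Prph, Vim and Gap43 had log2 fold changes over Input between -0.15 and 0.40, each smaller than its SE. With the block, Nefl was at 0.204 (SE 0.136) in ODD, 0.253 (SE 0.136) in EVEN and 0.138 (SE 0.136) in LacZ. Nefh was at 0.46 (SE 0.27) in ODD and 0.34 (SE 0.27) in EVEN, and Gap43 at 0.26 (SE 0.23) in EVEN. These were larger than their SE, but none of them passed. Nefh in LacZ, Gap43 in ODD and LacZ, and Prph and Vim in every pull-down stayed smaller than their SE.

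**Figure D5:**
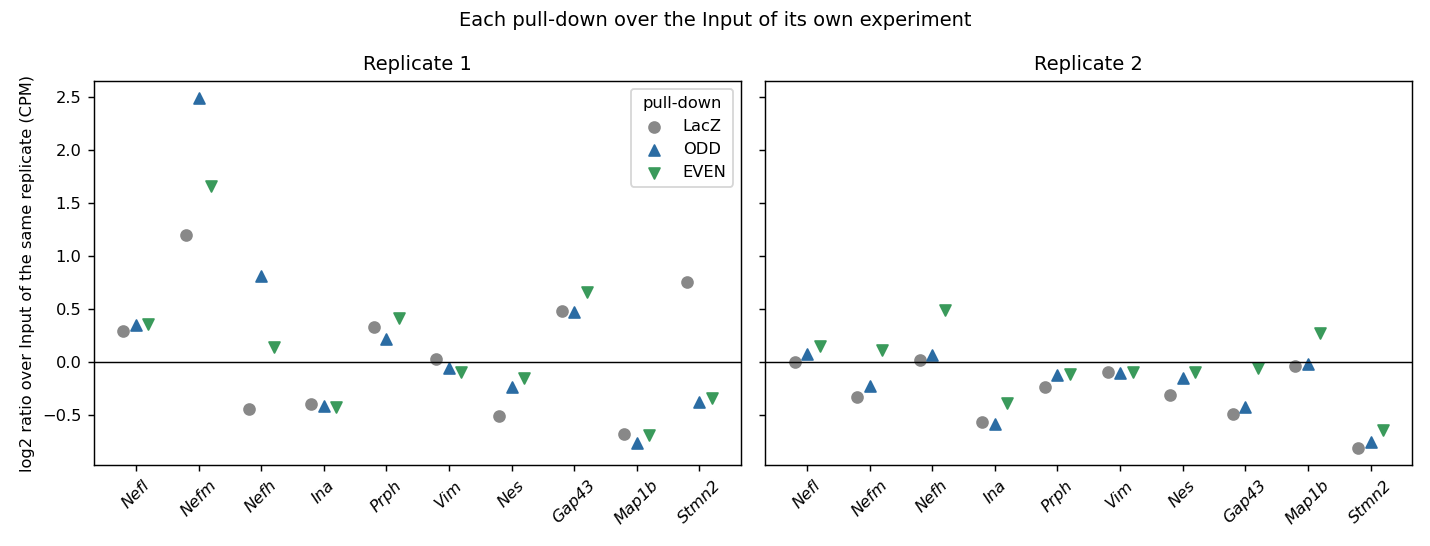
The log2 ratio of each pull-down (LacZ, ODD, EVEN) over Input of the same experiment in CPM for the 10 genes, with a panel per replicate, a point per library and a line at no difference. Ina and Nes lie below the line in all 6 pull-downs, and Nefm lies well above it only in replicate 1, up to a ratio of 5.60 in ODD before the log.

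Against the LacZ control, which asks whether the Lhx1os probes brought down more of an mRNA than control probes did, none of the 10 genes was called by edgeR with ODD, with EVEN or with the mean of both. Of all genes tested 0% were called in each of these 3 comparisons, with and without the block. Lhx1os itself, the captured RNA, was not called either, although its log2 fold change over LacZ was 5.57 with ODD, 5.27 with EVEN and 5.42 with the mean. The lack of a call by edgeR therefore says little about the 10 genes here. At an unadjusted p under 0.05 there were 0 of the 10 genes in each, beside 170, 283 and 218 of all genes. DESeq2 called 1, 13 and 2 genes, among them Lhx1os in each (DESeq2 adjusted p = 4.19e-07, 3.68e-06 and 2.20e-09) and none of the 10, and limma called none of the 10. The median log2 fold change of the 10 genes was 0.05 for ODD, 0.17 for EVEN and 0.10 for the mean, beside 0.01, 0.02 and 0.01 over all genes.

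With ODD and EVEN averaged and set against LacZ, the highest log2 fold changes were 0.60 (SE 0.50) for Nefm, 0.43 (SE 0.72) for Nefh and 0.25 (SE 0.13) for Nes. Nes was higher in all 4 Lhx1os pull-downs (741 to 791 CPM) than in both LacZ libraries (617 and 659). The share of all genes with that order was not counted. The lowest was -0.45 (SE 0.41) for Stmn2, where the LacZ library of replicate 1 was the high one. Vim was at -0.05 (SE 0.14), Ina at 0.03 (SE 0.30), Prph at 0.09 (SE 1.10), Nefl at 0.10 (SE 0.56), Map1b at 0.10 (SE 0.50) and Gap43 at 0.18 (SE 0.36). The large SE of Prph goes with the difference between the experiments, and with the block it was 0.14 around a log2 fold change of 0.05.

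No gene of the 4 pathway lists was called in any comparison by edgeR. The list medians against Input were between -0.30 and 0.06. Genes of high Input level in each list did not pass either: Map2, Tuba1a, Dcx and Tubb2b among the tubulins and microtubule binders, Dpysl3, Marcks, Dpysl2 and Marcksl1 among growth cone genes, Dync1h1, Kif1b, Kif1a and Kif5c among motors, and Dst, Lmnb1 and Plec among filament partners. With the block, 2 of the 46 list genes tested were called in ODD, 3 in EVEN and 2 in LacZ, where the blocked fit called 19.2%, 19.3% and 19.7% of all genes. Map1a, the partner of Map1b in microtubule binding, passed in ODD at -0.64 (edgeR adjusted p = 0.0363) and in LacZ at -0.70 (edgeR adjusted p = 0.0260). Tubb3, the neuronal beta-tubulin, passed in EVEN at -0.44 (edgeR adjusted p = 0.0388) and in LacZ at -0.48 (edgeR adjusted p = 0.0282). Ncam1, an adhesion molecule, passed in ODD at -0.78 (edgeR adjusted p = 0.0238) and in EVEN at -0.73 (edgeR adjusted p = 0.0318), and Dst, a linker of filaments, in EVEN at 0.79 (edgeR adjusted p = 0.0260).

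One locus inside these genes did change. The unclassified transcript 5330431K02Rik (chr13:99502477-99504439, minus strand) lies within an intron of Map1b on the same strand and shares no exon base with it. It had 19 and 62 counts in Input, 179 and 332 with LacZ, 270 and 331 with ODD, and 244 and 213 with EVEN, although Input was sequenced more deeply. Every pull-down library was above both Input libraries. The log2 fold change over Input was 3.83 (SE 0.57; edgeR adjusted p = 0.0105) with ODD, 3.40 (SE 0.56; edgeR adjusted p = 0.0186) with EVEN and 3.79 (SE 0.57; edgeR adjusted p = 0.00968) with LacZ. It was higher with the control probes as well, and the mean of ODD and EVEN over LacZ was -0.17 (SE 0.43). The other annotated loci inside introns of the 10 genes, Mir6540 in Gap43 and Gm19216 in Nefm, had no counts.

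The promoter letters are shown for 3 of the 6 genes that were higher in replicate 2, those for which the RefSeq table (GRCm38.p6) had an entry. Each sequence is the 250 bases before the RefSeq start site. Capitals mark TATAAA, the letters of the TATA box, and GGGCGG or its reverse complement CCGCCC, those of the GC box bound by Sp1 factors. They mark the letters wherever they occur, and whether a site acts as such a box was not tested.
Prph, chr15:99054924-99055173, plus strand: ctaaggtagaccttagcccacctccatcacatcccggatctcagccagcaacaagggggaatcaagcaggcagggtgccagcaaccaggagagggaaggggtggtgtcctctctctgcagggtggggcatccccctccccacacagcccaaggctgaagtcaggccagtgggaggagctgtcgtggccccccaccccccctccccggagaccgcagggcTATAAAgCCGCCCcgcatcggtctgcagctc
Ina, chr19:47014431-47014680, plus strand: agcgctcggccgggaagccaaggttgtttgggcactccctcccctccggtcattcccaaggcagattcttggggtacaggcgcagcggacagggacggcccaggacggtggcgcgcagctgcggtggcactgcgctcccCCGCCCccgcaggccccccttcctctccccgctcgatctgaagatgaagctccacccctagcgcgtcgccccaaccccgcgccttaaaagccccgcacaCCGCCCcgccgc
Map1b, chr13:99516603-99516852, minus strand: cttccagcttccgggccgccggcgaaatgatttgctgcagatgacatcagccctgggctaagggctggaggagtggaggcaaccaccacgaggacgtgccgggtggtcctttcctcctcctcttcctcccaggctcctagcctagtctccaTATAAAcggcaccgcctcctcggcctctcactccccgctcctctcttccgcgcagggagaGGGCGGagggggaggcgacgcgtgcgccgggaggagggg
Counted from the start site, TATAAA began at -31 and CCGCCC at -24 in Prph, CCGCCC at -111 and -12 in Ina, and TATAAA at -99 and GGGCGG at -39 in Map1b. No 2 marked motifs overlapped. Searched on both strands, TATAAA occurs in 12.3% and GGGCGG in 32.97% of 32536 promoter windows of this length. The homeodomain core TAATTA, found in 4.84% of windows, and CCAAT, found in 33.8%, were in none of the 3 windows. Vim, which was level between the experiments, has TATAAA at -32, and Nes has CCGCCC at -73 and -62.

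The gene of most similar pattern to a member was the one with the highest Pearson r of log2(CPM + 1) over the 8 libraries, among 10568 genes. The libraries fall into 2 experiments, so a high r can rest on that difference alone, and it is given as a description. It was Pde7b for Prph (r = 0.997), Fn1 for Map1b (0.995), Ric8b for Nefl (0.992), Rab9b for Ina (0.992) and Atpif1 for Gap43 (0.975). For the genes without a clean separation it was Rab8a for Vim (0.966), Rbfox1 for Stmn2 (0.965), Txlna for Nes (0.947) and Mrps18a for Nefm (0.942). Pde7b, a phosphodiesterase, had between 5.27 and 5.92 CPM in replicate 1 and between 13.7 and 15.3 in replicate 2, again without overlap.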

How the data were processed

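The authors deposited raw counts and FPKM values by Ensembl gene, with gene lengths, for 8 libraries. FPKM in the authors' table was the count over the length and the library's summed counts, so both hold 1 measurement. The submitters' processing notes list cutadapt 3.2, Bowtie2 2.4.2, Picard, HTSeq 0.13.5 and the build GRCm38, without their settings. Per the labels' protocols, a stranded kit with depletion of ribosomal RNA was used on total RNA. Of the gene identifiers, 55230 were found in GENCODE M21, and for 99.1% of these the deposited length equalled the merged exon length.

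The counts as deposited were tested with edgeR 4.0.16 (R 4.3.3), by the quasi-likelihood test on all 8 libraries with group as the only term, TMM factors and edgeR's default filter, which kept 16524 genes and all 10 members. P-values were two-sided and adjusted by Benjamini-Hochberg over all of these, and called under 0.05. The SE was the log2 fold change divided by the root of the F statistic.

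The labels give replicate numbers but name no batch, and same-numbered libraries were taken as pairs from the same experiment. Their deviations from the group means correlated with r from 0.534 to 0.765 over the 6 pairs of groups. A fit with that block was an alternative, as were RLE factors, DESeq2 1.42.0, no filter beyond 1 count, a blocked fit with a GC spline of 5 df removed, limma 3.58.1 on log2(FPKM + 1), and leaving out each library. P-values measure the spread of 2 experiments only. The count of genes that do not overlap between the experiments was added after the data were seen. The members and lists were chosen with earlier results of these data known. All members were named, with the 4 genes of highest mean Input CPM in each list plus any gene called; 1 list gene and the gene most like Nefh are not reported here. Genes of like pattern were sought among genes with a mean CPM of at least 10. Low-complexity sequence was marked with dustmasker at level 20, on 1 transcript per gene. Of the 10 members, 5 matched the RefSeq promoter table by symbol.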

Additional observations from a re-analysis of the deposited data

Results flagged for a closer look

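For Prph and Gap43 all 3 pull-downs were above Input in replicate 1 and all 3 were below it in replicate 2. The CPM of Prph over Input of the same experiment was between 1.16 and 1.33 in replicate 1 and between 0.850 and 0.923 in replicate 2. That of Gap43 was between 1.39 and 1.58 in replicate 1 and between 0.712 and 0.958 in replicate 2. The difference between the experiments was not tested. The 3 pull-downs of an experiment share 1 Input library, and 8.36% of all genes tested, 1382 genes, had the same order of signs.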

How the results depend on the processing

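The count of 6 members that were higher in all replicate 2 libraries was the same, and held the same 6 genes, with RLE factors, with total library size and on the deposited FPKM. Leaving out each library gave between 6 and 7. The share of all genes with that pattern was 12.7% with all libraries, 18.2% without the Input library of replicate 1, 20.8% without that of replicate 2 and 13.5% to 14.1% without another library. The other results below depend on the processing, and beyond what is stated the cause was not tested.

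Against Input, the number of genes called with the replicate block was 3169 for ODD, 3182 for EVEN and 3249 for LacZ, beside 1130, 935 and 1224 without it, and 3573, 3536 and 3640 with the block and the GC trend removed. The share of calls that were higher was 94.5%, 95.0% and 94.2% without the block, 65.8%, 66.7% and 64.4% with it, and 62.4%, 64.6% and 61.0% with the GC trend removed. Without the filter the calls were 2064, 1860 and 2118. By limma they were 710 in ODD and 395 in EVEN, and by DESeq2 1452 in EVEN. Against LacZ, DESeq2 called 1, 13 and 2 genes with ODD, EVEN and their mean, and 75, 72 and 81 were called without the filter, where edgeR called 0. The number of members called was 1 without the filter (Nefm in ODD), 1 in ODD and 1 in LacZ with the block (Ina in both), and 0 otherwise. The block changed no other member's call.

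The members' median log2 fold change over Input moved to 0.020 in EVEN with the block, and to 0.11 in ODD and 0.24 in EVEN with the GC trend removed as well. For LacZ it was -0.14, 0.043 with the block and GC trend removed and 0.0083 by limma, and for EVEN by limma it was 0.000942. Over LacZ it moved for ODD to -0.000667 with the block and GC trend removed and to -0.016 by limma, and for EVEN to 0.069 by limma.

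Leaving out 1 library at a time, no member was called in any comparison (between 0 and 0). The genes called were between 132 and 895 for ODD, 0 and 737 for EVEN and 214 and 1004 for LacZ against Input, each lowest without the Input library of replicate 1. Against LacZ they were between 0 and 7 for ODD, 0 and 5 for EVEN and 0 and 3 for the mean. The members' median was between -0.44 and 0.36 for ODD, -0.63 and 0.55 for EVEN and -0.56 and 0.59 for LacZ against Input, and between -0.25 and 0.43 for ODD, -0.43 and 0.59 for EVEN and -0.20 and 0.52 for the mean against LacZ. With 1 library left in a group, that library is assumed to vary like the others. Of the 60 member changes, 42 changed sign under at least 1 alternative and 18 kept it under all, and 3 of 840 alternative values passed the threshold. Precision is limited by the 2 experiments and, for Nefh, by low counts.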
